A study of Mus musculus with 24 samples.

Results

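Hypoxia targets and glycolysis are described here through 47 genes chosen by name: the subunits and oxygen sensors of the hypoxia-inducible factors (HIF), established HIF targets, and the enzymes and transporters that carry glucose to lactate. All 47 were among the 22314 named lines of the table, and all 47 passed the filter on low values, which 18364 genes passed. The RNA came from the hippocampus of mouse pups given hypoxia-ischemia (HI) at postnatal day 10, which serves as a model of brain injury around birth. The 24 libraries formed 12 groups of 2, set by genotype (wild type, WT; labelled Neil1-KO; Neil2-KO), by side (contralateral or ipsilateral to the injury) and by time (3 h or 6 h, taken here as time after HI). Neil1 and Neil2 encode DNA glycosylases, which cut oxidized bases out of DNA. The alleles, the strain and how the pups were related are not given here. All groups had undergone HI, and the samples held no sham or uninjured animal. In the usual form of the model 1 carotid artery is closed and the pup then breathes low oxygen, so that the contralateral side meets hypoxia without closure of its own artery. The contralateral side is therefore an internal reference and not an untreated tissue.

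HIF is a dimer of an alpha subunit (HIF-1α from Hif1a, or HIF-2α from Epas1) and a beta subunit (ARNT). When oxygen is present, prolyl hydroxylases (encoded by Egln1, Egln2 and Egln3) mark the alpha subunit, and the VHL protein directs it to degradation. When oxygen falls the alpha subunit is stabilized as protein, and the dimer binds short motifs with the core ACGTG or GCGTG near its targets. These targets include glucose transporters, most glycolytic enzymes, vascular factors and genes that limit mitochondrial work. HIF activity is set mainly at the protein level, and the values here are RNA levels only. In the hippocampus neurons and astrocytes divide glycolysis between them, with some isoenzymes favoured by one cell type, such as Eno2 in neurons and Aldoc in astrocytes.

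Depth was 17771293 to 29252067 reads per library. Neil2 was 0 to 3.02 normalized counts in the 8 Neil2-KO libraries and 15.2 to 27.8 in the 8 WT libraries. Neil1 itself was 91.6 to 155 in the 8 labelled Neil1-KO libraries and 56.8 to 123 in WT, no lower than in WT, so this genotype is called by its label throughout. The library labelled Neil1-KO ipsilateral 6 h replicate 2 stood apart from the other 23 by principal components, and it held the largest share of reads on unnamed lines (12.48%, lowest 8.41%). Markers of hippocampus and neurons were present in every library. Of 10 hippocampus markers 7 were lower on the ipsilateral side at 3 h and 9 at 6 h, and none was higher; their sum was 25365 to 32926 contralaterally over both times, and 17630 to 19812 ipsilaterally at 3 h and 10053 to 17355 at 6 h. Of 12 neuron markers (1 of them, Eno2, is also among the 47 genes), 7 were lower on the ipsilateral side at 3 h and 11 at 6 h, and none was higher. Their summed level was 182190 to 198820 contralaterally and 120328 to 158486 ipsilaterally at 3 h, and 166462 to 201261 against 74660 to 141292 at 6 h. Of 8 endothelium markers 5 were higher at each time (none lower at 3 h, 1 lower at 6 h), and their sum was 4189 to 5212 contralaterally and 5968 to 14262 ipsilaterally over both times. At 6 h all 4 erythroid markers were higher (sum 6330 to 15522 against 9353 to 50084), and of 10 thalamus markers 5 were higher and 2 lower (5051 to 5680 against 5094 to 7730); at 3 h none of the 4 was called, and of the 10, 2 were higher and 1 lower. The sum of 10 choroid plexus markers varied widely. It was 447 to 37809 contralaterally and 388 to 28509 ipsilaterally at 3 h, and 440 to 32356 against 639 to 21544 at 6 h. None of the 10 was called at 3 h, and 1 was lower at 6 h. Within a genotype at 6 h, 4 were lower in WT, 2 were higher in labelled Neil1-KO and 0 were called in Neil2-KO. Fits with a term for neuron markers or for choroid plexus markers are given below, and the part of the other shifts was not tested. Fewer cells of a type and less RNA per cell cannot be told apart in bulk tissue.

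The injured side was compared with the contralateral side at each time, as the mean over the 3 genotypes, to see which of these genes differ with the injury. Adm and Vegfa among the secreted factors, the transporters Slc2a1 and Slc16a3, the collagen hydroxylases P4ha1 and P4ha2 and the lipid droplet gene Plin2 rose on the ipsilateral side, and none of the 15 glycolytic enzymes did. At 3 h, 15 of the 47 genes (31.9%) were higher and 8 (17.02%) were lower, where 14.1% of all genes tested were called higher and 17.4% lower (limma, Benjamini-Hochberg adjusted p under 0.05). At 6 h, 19 (40.4%) were higher and 15 (31.9%) lower, against 24% and 24.7% of all genes. Of the genes tested, 31.6% were called in either direction at 3 h and 48.7% at 6 h. The share called higher lay above the background at both times, and the share called lower was near it at 3 h. The median log2 fold change of the 47 genes was -0.03 at 3 h and 0.09 at 6 h and that of all genes tested 0.01 and 0.02. The largest rise was 2.29 at 3 h and 2.13 at 6 h, both in Adm, and the deepest fall was -0.46 and -0.53, both in Hk1. Without the library that stood apart, 33 of the 47 genes were called at 6 h, 18 higher and 15 lower.

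All 15 genes that were higher at 3 h were also higher at 6 h, and all 8 that were lower at 3 h were also lower at 6 h, in comparisons of different animals. The share of all genes called at 3 h that kept their call at 6 h was not counted. The risers at both times were Hif1a, Arnt, Egln3, Adm, Vegfa, Slc2a1, Slc16a3, Pfkfb3, P4ha1, P4ha2, Ero1a, Bhlhe40, Ddit4, Ndrg1 and Plin2. The fallers at both times were Egln1, Slc2a3, Hk1, Pfkl, Pgam1, Eno2, Ldha and Pdk1. Epas1, Ldhb, Mxi1 and Ankrd37 were called higher at 6 h alone, and Gpi1, Pfkp, Aldoa, Pgk1, Pkm, Bnip3 and Bnip3l were called lower at 6 h alone, although the test of the difference between times, given below, called 1 gene only. The other 13 (Vhl, Egln2, Slc16a1, Hk2, Pfkm, Aldoc, Tpi1, Gapdh, Eno1, Pfkfb4, Higd1a, Kdm3a and Car9) were called at neither time. Whichever library was left out, 19 of the 23 calls at 3 h and 30 of the 34 at 6 h held. The exceptions at 3 h were Pdk1 (lost without any 1 of 9 libraries), Ero1a (8), Eno2 (5: WT contralateral 2 and ipsilateral 2, labelled Neil1-KO contralateral 2 and ipsilateral 1, Neil2-KO ipsilateral 2) and Ndrg1 (3: WT ipsilateral 1, labelled Neil1-KO ipsilateral 2, Neil2-KO ipsilateral 2). At 6 h they were Ldhb (WT ipsilateral 2), Aldoa (Neil2-KO contralateral 2), Mxi1 (5: WT contralateral 2 and ipsilateral 2, labelled Neil1-KO contralateral 1 and ipsilateral 2, Neil2-KO ipsilateral 1) and Gpi1 (5: WT contralateral 1 and ipsilateral 1, labelled Neil1-KO contralateral 2, Neil2-KO contralateral 2 and ipsilateral 1). With the animal as a replicate block, Pdk1 and Ero1a were no longer called at 3 h (limma adjusted p = 0.0563 and 0.0803). In a fit with a term for neuron markers, 7 of the 23 calls at 3 h were kept (Ddit4, Vegfa, Pfkfb3, Plin2, Bhlhe40, Adm and Egln1) and 4 of the 34 at 6 h (Ddit4, Bnip3l, Plin2 and Bhlhe40). The marker level itself fell with the side, so the term and the side cannot be told apart.

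**Figure D1:**
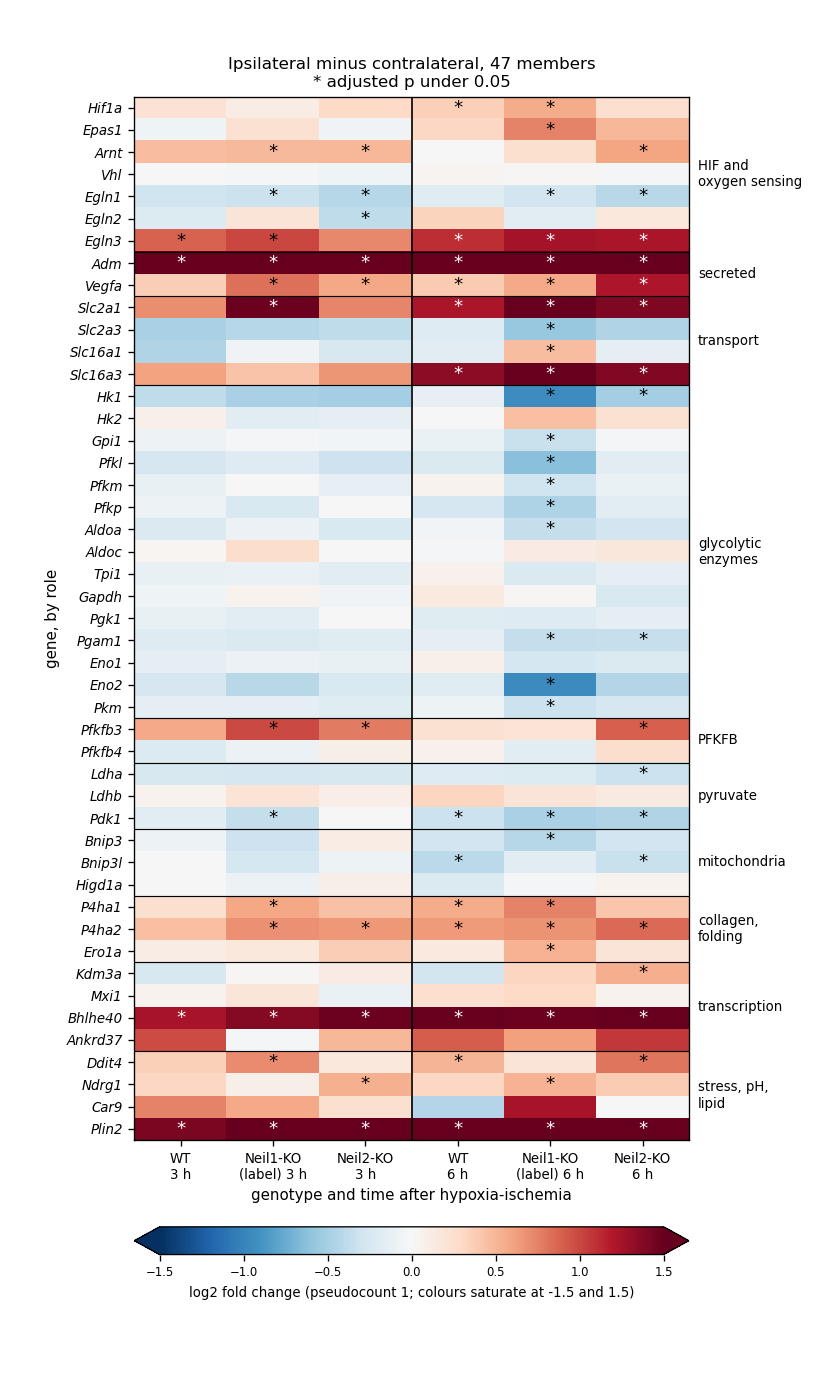
Log2 fold change, ipsilateral minus contralateral, of the 47 genes (vertical axis, grouped by role) in each genotype and time (horizontal axis); red is higher and blue lower on the ipsilateral side, colours saturate at -1.5 and 1.5, and asterisks mark a limma adjusted p under 0.05. Adm, Plin2 and Bhlhe40 carry an asterisk in all 6 columns, and most cells of the glycolytic enzymes are pale or blue, deepest in the labelled Neil1-KO column at 6 h.

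Promoter stretches of some members that moved in opposite directions are shown with their HIF core motifs. RefSeq promoter windows (build GRCm38.p6, 250 bases before to 50 after a start) were found for 42 of the 47 genes, 61 windows in all. Each line below holds a stretch of 100 bases within the 250 upstream of the start, 5′ to 3′ on the gene's strand. The stretch was chosen to hold the most matches, so its distance from the start differs between genes. Each match to ACGTG or GCGTG, on either strand (CACGT or CACGC), is in capitals. Where CACGTG occurs the matches of both strands overlap. The genes shown were picked and not drawn by a rule, so their match counts cannot be compared between risers and fallers. Among those left out, the stretches of Plin2 and Egln3, which rose, hold 1 match each, and that of Ankrd37, higher at 6 h, holds 3. The stretch of Bnip3, lower at 6 h, holds 5, and those of Pdk1, which fell, hold 1 and 0. The first 4 are from genes that were higher on the ipsilateral side.
Adm, chr7:110627557-110627656, plus strand: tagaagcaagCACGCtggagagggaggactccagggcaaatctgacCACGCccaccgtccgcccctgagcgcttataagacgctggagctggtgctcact
Slc2a1, chr4:119108645-119108744, plus strand: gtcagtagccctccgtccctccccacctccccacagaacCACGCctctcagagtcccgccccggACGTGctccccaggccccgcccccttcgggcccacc
Slc16a3, chr11:120948967-120949066, plus strand: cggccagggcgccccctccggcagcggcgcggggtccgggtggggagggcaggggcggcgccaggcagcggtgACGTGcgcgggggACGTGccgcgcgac
P4ha2, chr11:54100817-54100916, plus strand: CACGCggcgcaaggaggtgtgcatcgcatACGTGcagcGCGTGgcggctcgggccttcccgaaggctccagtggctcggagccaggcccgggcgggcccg
The next 4 are from genes that were lower at 6 h, all of them glycolytic or lactate-forming enzymes.
Ldha, chr7:46845704-46845803, plus strand: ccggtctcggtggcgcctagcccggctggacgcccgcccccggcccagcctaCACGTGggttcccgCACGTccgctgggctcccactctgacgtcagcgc
Pgk1, chrX:106186950-106187049, plus strand: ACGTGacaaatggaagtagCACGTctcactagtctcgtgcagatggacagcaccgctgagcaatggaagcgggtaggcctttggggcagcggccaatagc
Pgam1, chr19:41911696-41911795, plus strand: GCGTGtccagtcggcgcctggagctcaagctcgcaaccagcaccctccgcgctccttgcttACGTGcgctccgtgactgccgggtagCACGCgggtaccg
Eno2, chr6:124769674-124769773, minus strand: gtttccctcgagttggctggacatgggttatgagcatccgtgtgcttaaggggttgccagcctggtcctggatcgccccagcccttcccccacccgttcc
The Slc16a3 stretch holds ACGTG at 2 places, and the Ldha stretch, from a gene that fell, holds 3 matches of which an overlapping pair forms CACGTG. The Eno2 stretch holds no match, nor do its 250 upstream bases. At least 1 match lay in 48 of the 61 windows of these genes (78.7%), in 58.5% of the windows of genes tested and in 43.8% of all windows. The genes were chosen by name, many of them as HIF targets. A share above the background may follow from that choice and is no result of these libraries. By the 6 h calls, a match lay in 18 of 20 windows of genes that were higher (90%), 13 of 19 of those that were lower (68.4%) and 17 of 22 of those not called (77.3%). These windows come from 16, 13 and 13 genes, and some windows of the same gene overlap, so they are not independent. For ACGTG alone the shares were 75%, 47.4% and 40.9%, against 23.9% of windows of genes tested. GC content had a median of 62.3% in the members' windows, 60% in those of genes tested and 52.7% over all windows. By the 6 h calls it was 64.2% in windows of genes that were higher, 64.7% in those of genes that were lower and 57.8% in those not called. Its part in these shares was not tested. A match is a description of letters and not a binding site.

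Among the 7 HIF subunits and oxygen sensors, 3 were higher and 1 lower at 3 h, and 4 were higher and 1 lower at 6 h. Of all genes, 14.1% were higher and 17.4% lower at 3 h, and 24% and 24.7% at 6 h. Values are normalized counts, given as the lowest, median and highest of the 6 libraries of a side and time. Egln3, the prolyl hydroxylase whose gene is itself a strong HIF target, was 99.5, 149 and 162 contralaterally and 203, 260.3 and 345 ipsilaterally at 3 h, and 104, 141 and 163 against 279.8, 308 and 399 at 6 h. The sides did not overlap at either time, and Egln3 was higher in 6 of 6 animals at both. The log2 fold change of Egln3 was 0.87 ± 0.13 (SE; limma adjusted p = 6.92e-05) at 3 h and 1.19 ± 0.13 (SE; limma adjusted p = 7.75e-07) at 6 h. Egln1, the main oxygen sensor among the hydroxylases, moved the other way. Egln1 fell from 1999, 2167 and 2359 to 1648, 1674 and 1735 at 3 h, with no overlap, and from 1857, 2087 and 2434 to 1557, 1702 and 1889 at 6 h, with a small overlap. Its log2 fold change was -0.35 ± 0.05 (SE; limma adjusted p = 9.82e-05) and -0.30 ± 0.05 (SE; limma adjusted p = 0.000207). Egln2 was called at neither time (-0.13 and 0.10). Per kilobase of exon (union length from GENCODE M21 on GRCm38, an approximation to the lengths counted), the contralateral mean level was 591 for Egln1, 460 for Egln2 and 53.0 for Egln3, so the gene that rose had the lowest level of the 3 before and after the rise (109 per kilobase ipsilaterally).

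Hif1a, the alpha subunit of HIF-1, was 1587, 1708 and 2006 contralaterally and 1962, 2039 and 2114 ipsilaterally at 3 h, and 1597, 1775 and 1892 against 2200.0, 2268 and 2468 at 6 h. The ranges overlapped at 3 h, where 5 of 6 animals were higher ipsilaterally, and were apart at 6 h. On the log2 scale the sides differed by 0.21 ± 0.06 (SE; limma adjusted p = 0.0105) and 0.38 ± 0.06 (SE; limma adjusted p = 3.68e-05). Epas1, the alpha subunit of HIF-2, which is abundant in endothelium and astrocytes, was 2729, 2989 and 3338 contralaterally and 3172, 4002 and 6148 ipsilaterally at 6 h, higher in 6 of 6 animals. At 3 h its log2 fold change was 0.04 ± 0.13 (SE; limma adjusted p = 0.845), and at 6 h 0.51 ± 0.13 (SE; limma adjusted p = 0.00243). With a term for neuron markers the 6 h value of Epas1 turned to -0.24, and its highest ipsilateral level (6148) was in the labelled Neil1-KO library that stood apart. Arnt, the beta subunit, was 386, 457 and 491 contralaterally and 566, 638 and 670.5 ipsilaterally at 3 h, with no overlap, and its log2 fold change was 0.48 ± 0.08 (SE; limma adjusted p = 0.00011) at 3 h and 0.27 ± 0.08 (SE; limma adjusted p = 0.00634) at 6 h. At 6 h the ranges of Arnt overlapped, and 5 of 6 animals were higher ipsilaterally. Vhl, the adaptor that recognises hydroxylated HIF, was 1442 to 1719 over the 12 contralateral and 1466 to 1746 over the 12 ipsilateral libraries. The side difference on the log2 scale was -0.03 ± 0.05 (SE; limma adjusted p = 0.65) and 0.01 ± 0.05 (SE; limma adjusted p = 0.872).

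Both secreted factors were higher at both times, where 14.1% of all genes were at 3 h and 24% at 6 h. Adm encodes adrenomedullin, a peptide that widens vessels, and its fold change was the largest of the 47 genes at 3 h and, beside that of Plin2, at 6 h. Adm was 20.7, 46.1 and 59.2 contralaterally and 187, 216 and 231 ipsilaterally at 3 h, and 27.3, 31.2 and 41.2 against 85.4, 118 and 529.5 at 6 h. The sides were far apart at 3 h, where the lowest ipsilateral library stood above 3 times the highest contralateral one, and they did not overlap at 6 h. The log2 fold change was 2.29 ± 0.30 (SE; limma adjusted p = 1.72e-05) at 3 h and 2.13 ± 0.30 (SE; limma adjusted p = 1.18e-05) at 6 h. The highest value, 529.5 in the library that stood apart, was well above the next ipsilateral library at 6 h (85.4 and 149 in WT, 132 and 105 in Neil2-KO), while its partner of the same genotype was at 96.3. Vegfa, the main growth factor of vessels, was 1301, 1524 and 1715 contralaterally and 2139, 2185 and 2708 ipsilaterally at 3 h, and 995, 1255 and 1492 against 1609, 2024 and 2642 at 6 h. The sides did not overlap at either time, and Vegfa was higher in 6 of 6 animals at each. The fitted log2 fold change was 0.59 ± 0.08 (SE; limma adjusted p = 1.43e-05) and 0.72 ± 0.08 (SE; limma adjusted p = 4.77e-07).

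The 4 transporters of glucose and lactate split within each pair. Slc2a1 encodes GLUT1, the glucose carrier of brain endothelium and glia, and Slc2a3 encodes GLUT3, the carrier favoured by neurons. Slc2a1 was 1177, 2329.6 and 2911 contralaterally and 3907, 3965 and 4870.5 ipsilaterally at 3 h, and 1286, 1605 and 1806 against 3428, 4122 and 7569 at 6 h. No ipsilateral library overlapped the contralateral ones at either time. In log2 terms the difference between the sides was 0.97 ± 0.15 (SE; limma adjusted p = 8.59e-05) and 1.5 ± 0.15 (SE; limma adjusted p = 2.75e-07). Slc2a3 was 4045, 5349 and 6319 contralaterally and 2437, 4090.5 and 4532 ipsilaterally at 3 h, and 3949, 4653 and 5706 against 2187, 3747 and 4408 at 6 h. The ranges of Slc2a3 overlapped, yet it was lower ipsilaterally in 6 of 6 animals at each time. Its log2 fold change was -0.43 ± 0.12 (SE; limma adjusted p = 0.0126) and -0.41 ± 0.12 (SE; limma adjusted p = 0.0106), and with a term for neuron markers it became 0.01 and 0.32, neither called. Per kilobase of exon, Slc2a1 went from a contralateral mean of 537 to 1247 ipsilaterally and Slc2a3 from 690 to 521, so that the order of the means turned. The contralateral ranges overlapped (336 to 830 for Slc2a1 and 545 to 872 for Slc2a3). The ipsilateral ranges did not (978 to 2159 and 302 to 626).

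Slc16a3 encodes MCT4, a lactate exporter of glycolytic cells, and Slc16a1 encodes MCT1, which moves lactate in either direction in endothelium and glia. Slc16a3 was 56.7, 62.7 and 73.2 contralaterally and 81.9, 91.8 and 120.1 ipsilaterally at 3 h, and 48.5, 59.1 and 65.1 against 130.0, 142 and 253 at 6 h. The sides did not overlap at either time, and they were further apart at 6 h. On the log2 scale the sides differed by 0.56 ± 0.15 (SE; limma adjusted p = 0.00761) at 3 h and 1.49 ± 0.15 (SE; limma adjusted p = 3.1e-07) at 6 h. Slc16a1 was called at neither time (-0.25 and 0.05; 2193 to 2880 ipsilaterally at 3 h and 2255 to 4540 at 6 h). Per kilobase the contralateral mean of Slc16a1 was 667 and that of Slc16a3 was 11.4, so Slc16a3 remained the lower of the pair on the ipsilateral side (24.8 against 633).

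**Figure D2:**
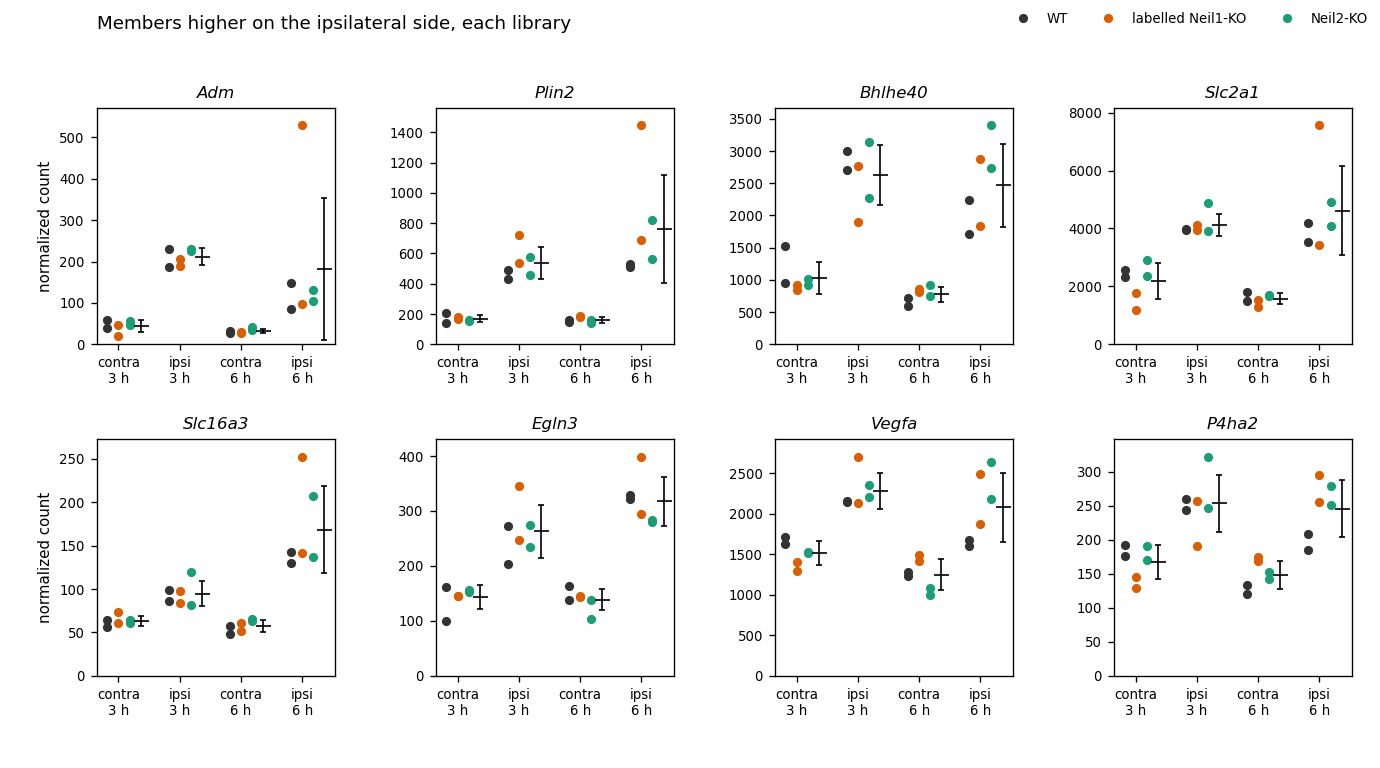
Normalized counts (vertical axis) of Adm, Plin2, Bhlhe40, Slc2a1, Slc16a3, Egln3, Vegfa and P4ha2 in each of the 24 libraries, by side and time (horizontal axis) and genotype (colour); the black bar is the mean ± SD of 6 libraries. Except for P4ha2 at 3 h, the ipsilateral points lie above all contralateral points of the same time, and 1 labelled Neil1-KO library at 6 h is highest in Adm, Plin2, Slc2a1 and Slc16a3.

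None of the 15 glycolytic enzymes was called higher at either time, 4 were lower at 3 h and 9 at 6 h, with a median log2 fold change of -0.11 and -0.17. These falls were smaller than the rises of Slc2a1 and Slc16a3. The shares of all genes called lower were 17.4% at 3 h and 24.7% at 6 h, and those called higher 14.1% and 24%. Hk1, the main hexokinase of brain, was 7975, 8704 and 10209.8 contralaterally and 5246, 6513 and 7415 ipsilaterally at 3 h, with no overlap, and 6978, 7848 and 9749 against 3223, 5995 and 7207 at 6 h. Hk1 was lower ipsilaterally in 6 of 6 animals at 3 h and in 5 of 6 at 6 h. The side difference on the log2 scale was -0.46 ± 0.10 (SE; limma adjusted p = 0.00189) and -0.53 ± 0.10 (SE; limma adjusted p = 0.00027). Hk2, the hexokinase gene known as a HIF target, was called at neither time (-0.07 and 0.23), and per kilobase its contralateral mean (45.2) was far under that of Hk1 (993). Eno2, the neuronal enolase, was 6964, 8851 and 9249 contralaterally and 4758, 7260.0 and 8113 ipsilaterally at 3 h, and 6236, 7104 and 8775 against 2868, 5633 and 6446 at 6 h. Eno2 was lower ipsilaterally in 6 of 6 animals at each time although the ranges overlapped. The fitted log2 fold change was -0.30 ± 0.09 (SE; limma adjusted p = 0.0203) and -0.52 ± 0.09 (SE; limma adjusted p = 0.000163). With a term for neuron markers Eno2 stood at 0.10 and 0.15 and Hk1 at 0.22 at 6 h, none of them called.

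Pgam1, the phosphoglycerate mutase whose promoter stretch holds 3 matches, was 10298, 11678 and 12189 contralaterally and 8859.9, 10129.9 and 10888 ipsilaterally at 3 h, and 8943, 10179.5 and 12516 against 6993, 9024 and 9189 at 6 h. It was lower ipsilaterally in 6 of 6 animals at each time, with log2 fold changes of -0.20 ± 0.06 (SE; limma adjusted p = 0.0112) and -0.28 ± 0.06 (SE; limma adjusted p = 0.000422). Pfkl, the liver-type phosphofructokinase subunit, was the remaining enzyme called at both times (-0.26 and -0.34). Pfkp (-0.30), Aldoa (-0.23), Pkm (-0.21), Pgk1 (-0.17) and Gpi1 (-0.16) were lower at 6 h alone. Each of these 5 values is a log2 fold change with an SE of 0.05 to 0.09. The calls of Aldoa, Pkm, Pgk1 and Gpi1 at 6 h were lost in a fit of the compared groups only. Gapdh, often used as a reference gene, was -0.02 and -0.02. The other enzymes that were not called were Aldoc, the astrocyte aldolase (0.09 and 0.09), Eno1 (-0.11 and -0.14), Tpi1 (-0.12 and -0.10) and Pfkm (-0.08 and -0.11). Every step from hexokinase to pyruvate kinase is covered by these genes.

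Pfkfb3 and Pfkfb4 encode the enzymes that make fructose-2,6-bisphosphate, the activator of phosphofructokinase. Pfkfb3 was 998, 1231 and 1548 contralaterally and 1851, 2094 and 2273 ipsilaterally at 3 h, and 801, 1168 and 1325 against 1263, 1499 and 1952 at 6 h. The sides were apart at 3 h and overlapped at 6 h, where 5 of 6 animals were higher ipsilaterally. In log2 terms the difference between the sides was 0.78 ± 0.09 (SE; limma adjusted p = 9.28e-06) at 3 h and 0.44 ± 0.09 (SE; limma adjusted p = 0.000836) at 6 h. Pfkfb4 was called at neither time (-0.07 and 0.06).

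**Figure D3:**
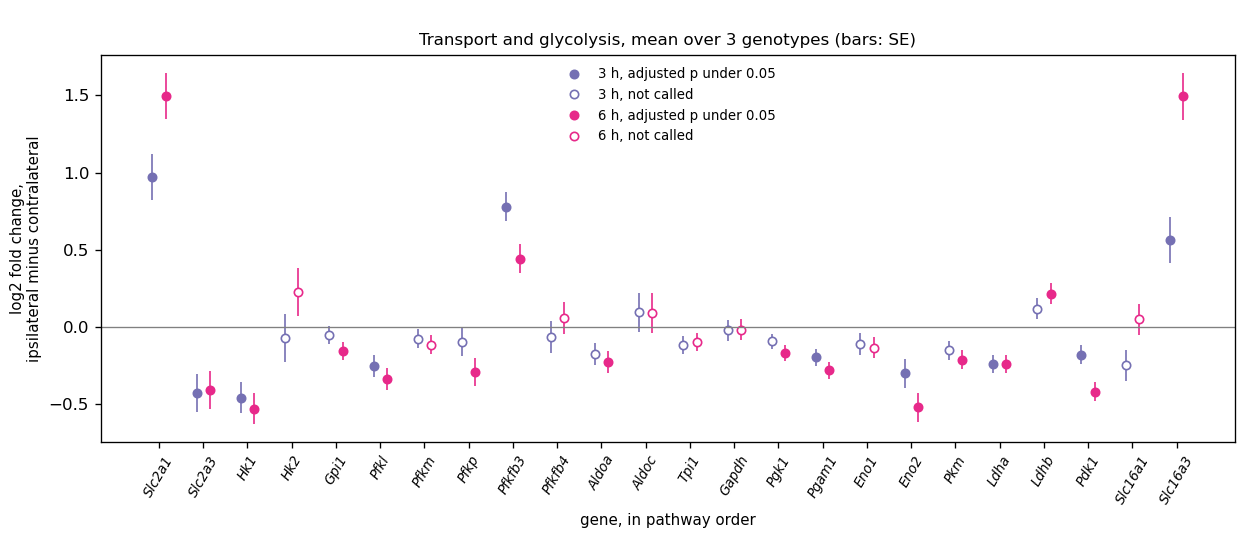
Log2 fold change, ipsilateral minus contralateral (vertical axis), of the transporters and enzymes in pathway order (horizontal axis) at 3 h and 6 h, as the mean over 3 genotypes with its SE; filled points have a limma adjusted p under 0.05. The filled points above 0 are Slc2a1, Pfkfb3, Slc16a3 and, at 6 h, Ldhb; of the 15 glycolytic enzymes Aldoc at both times and Hk2 at 6 h lie above 0 with open points, and every filled point of these enzymes lies below 0.

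The genes for the fate of pyruvate split. Ldha encodes the lactate dehydrogenase subunit that favours lactate formation and Ldhb the subunit that favours its use. Ldha was 8821, 9185 and 9716 contralaterally and 7368, 7851 and 8033 ipsilaterally at 3 h, with no overlap, and 7281, 8471 and 9837 against 6611, 7101 and 7478 at 6 h. Its log2 fold change was -0.24 ± 0.06 (SE; limma adjusted p = 0.00329) and -0.24 ± 0.06 (SE; limma adjusted p = 0.00173), a fall in 6 of 6 animals at each time. Ldhb moved the other way, from 3031, 3291 and 3798 to 3158, 3883 and 4507 at 6 h (log2 fold change 0.22 ± 0.07 (SE; limma adjusted p = 0.0146)), and at 3 h it was 0.12 and not called. Pdk1, the kinase that closes pyruvate dehydrogenase and a known HIF target, fell. Pdk1 was 847, 989.9 and 1068 contralaterally and 729, 893 and 910.1 ipsilaterally at 3 h, and 893, 952 and 1019 against 649, 699 and 781 at 6 h. The sides overlapped at 3 h, where 5 of 6 animals were lower ipsilaterally, and were apart at 6 h. On the log2 scale the sides differed by -0.18 ± 0.06 (SE; limma adjusted p = 0.0344) at 3 h, a call that did not hold with the replicate block, and -0.42 ± 0.06 (SE; limma adjusted p = 2.35e-05) at 6 h. Bnip3 and Bnip3l encode receptors that direct mitochondria to autophagy, and both are HIF targets. At 6 h Bnip3 was 974, 1096 and 1168 contralaterally and 743, 859.7 and 981 ipsilaterally, and Bnip3l was 2374, 2501 and 2715 against 1866, 2013 and 2317. Their log2 fold changes at 6 h were -0.34 ± 0.06 (SE; limma adjusted p = 0.000191) and -0.30 ± 0.06 (SE; limma adjusted p = 0.00085), and at 3 h -0.09 and -0.11, neither called. Higd1a, a small mitochondrial protein induced by hypoxia, was called at neither time (-0.00 and -0.07).

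**Figure D4:**
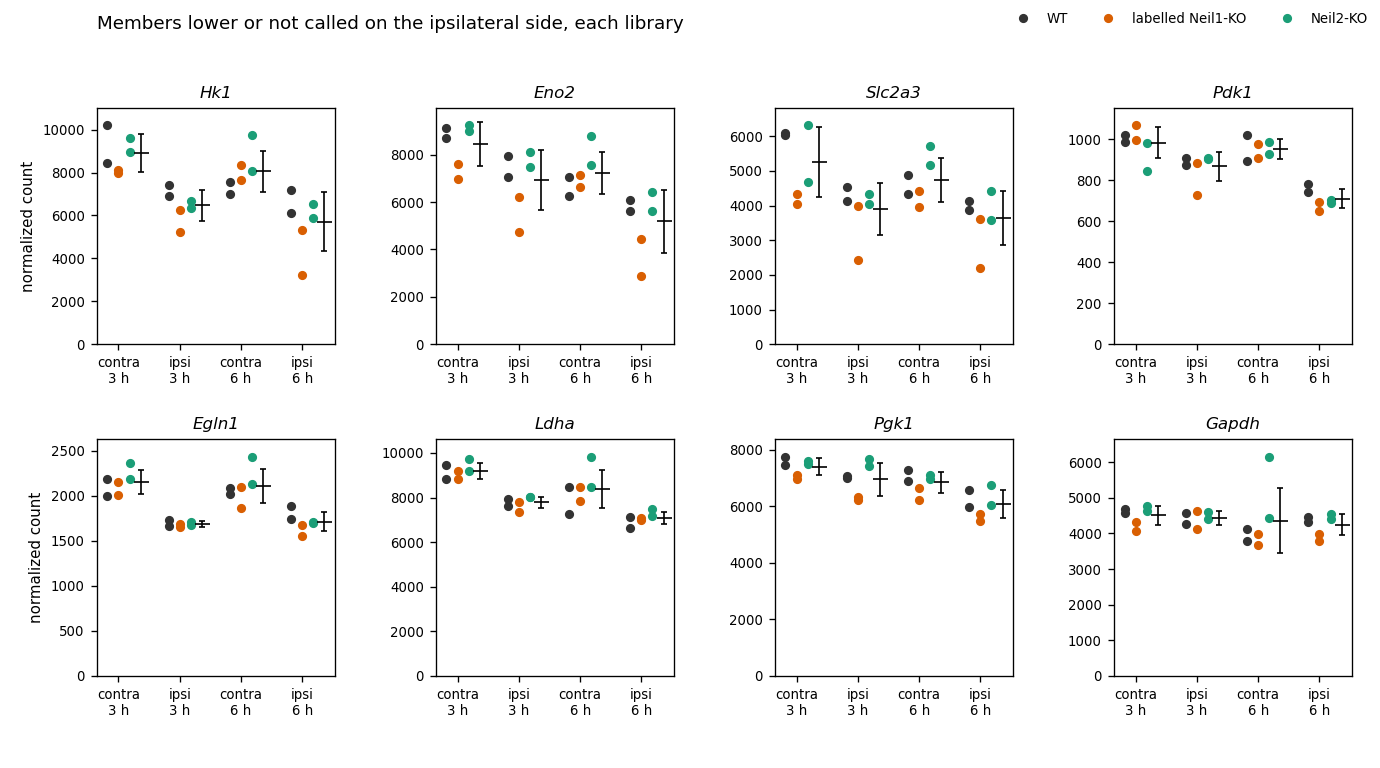
Normalized counts (vertical axis) of Hk1, Eno2, Slc2a3, Pdk1, Egln1, Ldha, Pgk1 and Gapdh in each of the 24 libraries, by side and time (horizontal axis) and genotype (colour); the black bar is the mean ± SD of 6 libraries. Ipsilateral points of Egln1, Hk1 and Ldha at 3 h and of Pdk1 at 6 h lie below all contralateral points of the same time, and the 2 labelled Neil1-KO ipsilateral points are the lowest for Eno2 and Hk1 at each time.

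P4ha1 and P4ha2 encode the catalytic subunits of collagen prolyl 4-hydroxylase, and Ero1a an oxidase that drives disulfide bonds in the endoplasmic reticulum. All 3 were called higher at both times, where 14.1% of all genes were at 3 h and 24% at 6 h. P4ha2 was 129, 173 and 192 contralaterally and 190.3, 252 and 322 ipsilaterally at 3 h, and 120.2, 147 and 175 against 185, 253 and 295 at 6 h. The sides nearly separated at 3 h and did not overlap at 6 h. The side difference on the log2 scale was 0.59 ± 0.09 (SE; limma adjusted p = 0.000128) and 0.72 ± 0.09 (SE; limma adjusted p = 6.73e-06). P4ha1 was 639, 783 and 993 contralaterally and 1007, 1033 and 1154 ipsilaterally at 3 h, with no overlap, and its log2 fold change was 0.42 ± 0.09 (SE; limma adjusted p = 0.0014) and 0.57 ± 0.09 (SE; limma adjusted p = 3.48e-05). At 6 h the ranges of P4ha1 overlapped, although 6 of 6 animals were higher at each time. Ero1a was 589, 666 and 705 contralaterally and 725, 779 and 939 ipsilaterally at 6 h, with no overlap. At 3 h the ranges of Ero1a overlapped, and 5 of 6 animals were higher. The fitted log2 fold change was 0.21 ± 0.07 (SE; limma adjusted p = 0.0367) at 3 h, not called with the replicate block, and 0.29 ± 0.07 (SE; limma adjusted p = 0.00402) at 6 h.

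Of the 4 genes for transcription and chromatin, 1 was higher at 3 h and 3 at 6 h, where 14.1% and 24% of all genes were. Bhlhe40, a repressor of the clock and of differentiation that HIF induces, was 847, 941 and 1522 contralaterally and 1906, 2739 and 3138 ipsilaterally at 3 h, and 592, 783 and 925 against 1719.6, 2483 and 3404 at 6 h. The sides did not overlap at either time, and Bhlhe40 was called in each of the 3 genotypes at both. In log2 terms the difference between the sides was 1.36 ± 0.14 (SE; limma adjusted p = 1.29e-06) and 1.64 ± 0.14 (SE; limma adjusted p = 4.46e-08). Ankrd37, an ankyrin-repeat gene with few reads here, was 17.3, 26.0 and 37.8 contralaterally and 23.6, 46.5 and 98.1 ipsilaterally at 6 h. The ranges of Ankrd37 overlapped widely, and 5 of 6 animals were higher ipsilaterally. Its log2 fold change was 0.48 ± 0.27 (SE; limma adjusted p = 0.183) at 3 h and 0.86 ± 0.27 (SE; limma adjusted p = 0.0128) at 6 h; with a term for neuron markers the 6 h value turned to -0.82, not called. Mxi1, an antagonist of MYC, was 868, 1001 and 1122 contralaterally and 1011, 1148 and 1227 ipsilaterally at 6 h (log2 fold change 0.20 ± 0.07 (SE; limma adjusted p = 0.0202)). Mxi1 was higher in 6 of 6 animals at 6 h, by less than the range within each side. Kdm3a, a histone demethylase, was called at neither time (-0.03 and 0.20).

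Of the 4 genes for stress, pH and lipid, 3 were higher at both times, where 14.1% of all genes were at 3 h and 24% at 6 h. Plin2 encodes a protein that coats lipid droplets. Plin2 was 140.1, 164 and 209 contralaterally and 429.9, 514 and 725 ipsilaterally at 3 h, and 138, 161 and 186 against 511, 626 and 1448 at 6 h. The lowest ipsilateral library stood above 2 times the highest contralateral one at each time. On the log2 scale the sides differed by 1.65 ± 0.15 (SE; limma adjusted p = 4.93e-07) and 2.13 ± 0.15 (SE; limma adjusted p = 8.53e-09). Ddit4, which restrains the growth kinase mTORC1, was 1871, 2319 and 2761 contralaterally and 2741, 2944 and 3420.2 ipsilaterally at 3 h, and 1668, 1909 and 1983 against 1787, 2718 and 3190.2 at 6 h. The ranges of Ddit4 overlapped, and 5 of 6 animals were higher ipsilaterally at each time. The side difference on the log2 scale was 0.41 ± 0.08 (SE; limma adjusted p = 0.000803) and 0.50 ± 0.08 (SE; limma adjusted p = 4.92e-05), and its calls were among those kept with the term for neuron markers. Ndrg1, a stress gene also abundant in oligodendrocytes, was 912, 1043 and 1231 contralaterally and 991, 1384 and 1802 ipsilaterally at 6 h, and its log2 fold change was 0.31 ± 0.09 (SE; limma adjusted p = 0.017) and 0.41 ± 0.09 (SE; limma adjusted p = 0.00156). Car9, a carbonic anhydrase that is a classical HIF-1 target in tumours, had few reads (4.94 to 35.9 normalized counts over the 24 libraries) and was called at neither time (0.52 and 0.27).

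At 3 h, 10 of the 47 genes had all 6 ipsilateral libraries above all 6 contralateral ones, where 7.07% of all genes tested did, and 3 (Egln1, Hk1 and Ldha) had them all below, where 11.2% did. At 6 h, 10 were all above (9.55% of all genes) and 2, Pdk1 and Bnip3l, all below (12.1%). Of the genes all above, Egln3, Adm, Vegfa, Slc2a1, Slc16a3, Bhlhe40 and Plin2 were so at both times. The share of all genes that were so at both times was not counted, nor was the share that moved in the same direction in 6 of 6 animals.

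The side response was compared between 3 h and 6 h to see which genes were still moving. Slc16a3 alone was called, with a side response larger at 6 h by 0.93 ± 0.21 (SE; limma adjusted p = 0.0321) on the log2 scale, where 1.90% of all genes were called. That 1 call is 2.13% of the 47 genes, near the share over all genes. The ratio of ipsilateral to contralateral Slc16a3 within animals was 1.27, 1.36 and 1.98 (lowest, median and highest of 6) at 3 h and 2.11, 2.64 and 4.93 at 6 h. These ratios did not overlap between the times, but they come from the same values as the call. The share of all genes with ratios apart was not counted. The call was not kept with the animal as a replicate block (adjusted p = 0.0578 in limma), with a term for neuron markers, with only animals with low Xist, or without any 1 of 12 of the 24 libraries, 8 of them contralateral. Without the library that stood apart the difference was 0.79 (limma adjusted p = 0.0348). Levels at 6 h were also compared with those at 3 h on each side. On the ipsilateral side 3 of the 47 genes were higher at 6 h and 9 lower, where 5.14% and 7.52% of all genes were. The higher ones were Slc16a3 (0.79 ± 0.15 (SE; limma adjusted p = 0.00328)), Epas1 (0.41 ± 0.13 (SE; limma adjusted p = 0.0414)) and Slc16a1 (0.34 ± 0.10 (SE; limma adjusted p = 0.0306)). The lower ones were Eno2 (-0.44), Pfkfb3 (-0.43), Pfkl (-0.30), Pdk1 (-0.29), Bnip3 (-0.28), Pgam1 (-0.23), Gpi1 (-0.23), Pfkm (-0.21) and Pgk1 (-0.19), 6 of them glycolytic enzymes. Of the 12 calls, 6 (Eno2, Pdk1, Pfkl, Slc16a3, Pfkfb3 and Bnip3) held whichever library was left out. The number called was 4 in a fit of the compared groups only, 6 without Neil2-KO 3 h replicate 1, 7 without WT 3 h replicate 1 or Neil2-KO 6 h replicate 1, and 20 without labelled Neil1-KO 6 h replicate 1. On the contralateral side none of the 47 was called in limma, where 0.332% of all genes were. In limma 16 had an unadjusted p under 0.05, as did 2318 of the 18364 genes tested. Of the 47, edgeR called 0 and DESeq2 called 2, both lower at 6 h.

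In WT alone the side comparison had 2 libraries a group. At 3 h, 4 genes were higher (Adm, Plin2, Bhlhe40 and Egln3) and none lower, where 2.49% and 1.79% of all genes were called. At 6 h, 11 were higher and 2 lower (Bnip3l and Pdk1), where 10.4% and 10.3% of all genes were. WT Adm was 59.2 and 39.4 contralaterally and 231 and 187 ipsilaterally at 3 h, and 32.7 and 27.3 against 85.4 and 149 at 6 h. WT Slc2a1 was 1490.0 and 1806 against 4175 and 3538 at 6 h. No glycolytic enzyme was called in WT at either time, with log2 fold changes between -0.38 (Hk1, 3 h) and 0.15 (Gapdh, 6 h). The 4 calls at 3 h fell to 0 without contralateral replicate 2 or ipsilateral replicate 2 and to 1 without ipsilateral replicate 1. Of the 13 at 6 h, Slc16a3, Plin2, Slc2a1, Bhlhe40 and Egln3 held whichever library was left out, and the number fell to 5 and 6 without contralateral replicate 1 and 2, and to 7 without ipsilateral replicate 2. With the animal as a replicate block Egln3 at 3 h (limma adjusted p = 0.0621) and Pdk1 at 6 h (limma adjusted p = 0.0686) were no longer called in WT. The WT call of Pdk1 at 6 h was also lost with no filter, in the compared groups only, with either marker term and without any 1 of its 4 libraries.

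In the labelled Neil1-KO mice 11 genes were higher and 2 lower at 3 h, where 7.2% and 9.85% of all genes were called, and 14 higher and 13 lower at 6 h, where 17.6% and 21.4% were. In the Neil2-KO mice 8 were higher and 2 lower at 3 h (4.29% and 4.95% of all genes), and 12 higher and 6 lower at 6 h (12.2% and 12.6%). Adm, Plin2 and Bhlhe40 were higher in all 3 genotypes at 3 h. At 6 h Egln3, Adm, Vegfa, Slc2a1, Slc16a3, P4ha2, Bhlhe40 and Plin2 were, and Pdk1 was lower in all 3, where its WT call did not hold as given above. The replicate block also ended the calls of Pdk1 at 3 h (limma adjusted p = 0.05003) and Pfkm at 6 h (0.0677) in labelled Neil1-KO, and of Ndrg1 (0.0698) and Egln2 (0.0684) at 3 h in Neil2-KO. The enzymes called lower in the labelled Neil1-KO mice at 6 h numbered 9 of 15, led by Eno2 (-0.95) and Hk1 (-0.95), against 2 in Neil2-KO, Hk1 (-0.52) and Pgam1 (-0.34). In the labelled Neil1-KO mice at 6 h all 12 neuron markers were lower as well (median log2 fold change -0.93) and all 4 erythroid markers higher. With a term for neuron markers 0 of the 27 calls were kept, and Eno2 and Hk1 stood at 0.08 and 0.19. In a fit of the compared groups only 8 were kept, with Pfkl the 1 enzyme among them. Without labelled Neil1-KO ipsilateral replicate 2 the 27 calls of this genotype at 6 h fell to 17, and without its contralateral replicate 1 also to 17. The Neil2-KO calls at 3 h fell from 10 to 2 without contralateral replicate 1 or ipsilateral replicate 2, to 4 without contralateral replicate 2 and to 5 without ipsilateral replicate 1, and those at 6 h from 18 to 10 without contralateral replicate 2.

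The side responses were then compared between genotypes, since a call in 1 genotype and none in another is no test of a difference. None of the 47 was called for either knockout in limma, nor was any other gene tested (0% of all genes). Of the 47, edgeR and DESeq2 also called 0; over all genes tested edgeR called 0, and DESeq2 called 2 for labelled Neil1-KO and 1 for Neil2-KO. In limma 6 and 4 of the 47 had an unadjusted p under 0.05 for labelled Neil1-KO and Neil2-KO. Over the 18364 genes tested, 2652 and 976 did. Without labelled Neil1-KO ipsilateral 6 h replicate 1, which leaves the library that stood apart as the lone one of its group, 8 genes were called for that genotype. Levels in each knockout were then set against WT, side by side, averaging 3 h and 6 h. On the contralateral side none of the 47 was called for the labelled Neil1-KO (0.103% of all genes) or Neil2-KO (0.0817%), by limma, edgeR or DESeq2, with 8 at an unadjusted p under 0.05 in each. By limma 1241 and 1582 of the 18364 genes tested were under it. On the ipsilateral side none was called for Neil2-KO by limma, edgeR or DESeq2 (0.109% of all genes by limma). By limma 3 of the 47 had an unadjusted p under 0.05, as did 1065 of the 18364 genes tested.

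The labelled Neil1-KO ipsilateral libraries differed from the WT ones in 8 of the 47 genes, 2 higher and 6 lower, where 1.91% and 7.40% of all genes were called. Of the 6 lower genes 5 are glycolytic enzymes and the other is Slc2a3. Eno2 was 4758 and 6201 at 3 h and 4438 and 2868 at 6 h in the labelled Neil1-KO, and 7959.7 and 7043 and then 5636 and 6076 in WT. The labelled Neil1-KO libraries were below those of WT at the same time, a log2 fold change of -0.59 ± 0.11 (SE; limma adjusted p = 0.00848). Hk1 was 5246 and 6269 at 3 h and 5330.0 and 3223 at 6 h, against 7415 and 6904 and then 6126 and 7207 in WT (-0.50 ± 0.12 (SE; limma adjusted p = 0.0205)). Pkm, the pyruvate kinase gene, was 10518 and 10822 and then 9570.0 and 8465, against 13636 and 12822 and then 12254 and 11649.6 in WT (-0.36 ± 0.08 (SE; limma adjusted p = 0.0119)). Every labelled Neil1-KO library lay below every WT library for Pkm. Eno2 and Pkm were among the called genes, and the share of all genes that separate in these ways was not counted. Pgam1 (-0.25 ± 0.07 (SE; limma adjusted p = 0.0307)) and Aldoa (-0.30 ± 0.09 (SE; limma adjusted p = 0.041)) were lower as well. Plin2 was higher, with 725 and 539 at 3 h and 687 and 1448 at 6 h in the labelled Neil1-KO against 429.9 and 489.5 and then 528 and 511 in WT (0.69 ± 0.19 (SE; limma adjusted p = 0.0309)). Slc2a3 (-0.49 ± 0.15 (SE; limma adjusted p = 0.0476)) and Car9 (1.29 ± 0.40 (SE; limma adjusted p = 0.0489)) complete the 8 and are named after their values were seen. Car9 had few reads, 34.8 and 19.1 and then 35.9 and 29.6 against 17.05 and 13.8 and then 13.4 and 4.94.

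The contralateral values of the same genes were not called, at -0.12 for Eno2, -0.03 for Hk1, -0.24 for Pkm and 0.13 for Plin2, and the difference between the sides was -0.47 ± 0.16 (SE; limma adjusted p = 0.303) for Eno2. Several measures moved with this genotype on the ipsilateral side. Of 12 neuron markers 9 were lower and none higher (summed level 74660 to 135346, in WT 132865 to 158486), and 2 of 4 erythroid markers were higher (10416 to 50084, in WT 7708 to 14278). The 10 choroid plexus markers summed to 388 to 21544 in the labelled Neil1-KO and 464 to 737 in WT, with none called. None of the 8 calls was kept with a term for neuron markers, with a term for choroid plexus markers, or in a fit of the compared groups only. The number was also 0 without WT 3 h replicate 1 or labelled Neil1-KO 3 h replicate 1, 2 without WT 6 h replicate 2 or without the library that stood apart, 3 without WT 3 h replicate 2, and 15 without labelled Neil1-KO 6 h replicate 1. With only the animals with low Xist it was 4 (Eno2, Hk1, Pkm and Slc2a3). The 3 animals with high Xist were labelled Neil1-KO 3 h replicate 2, labelled Neil1-KO 6 h replicate 2 (the animal of the library that stood apart) and Neil2-KO 6 h replicate 2; none was WT, so Xist level was not balanced between the genotypes compared.

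**Figure D5:**
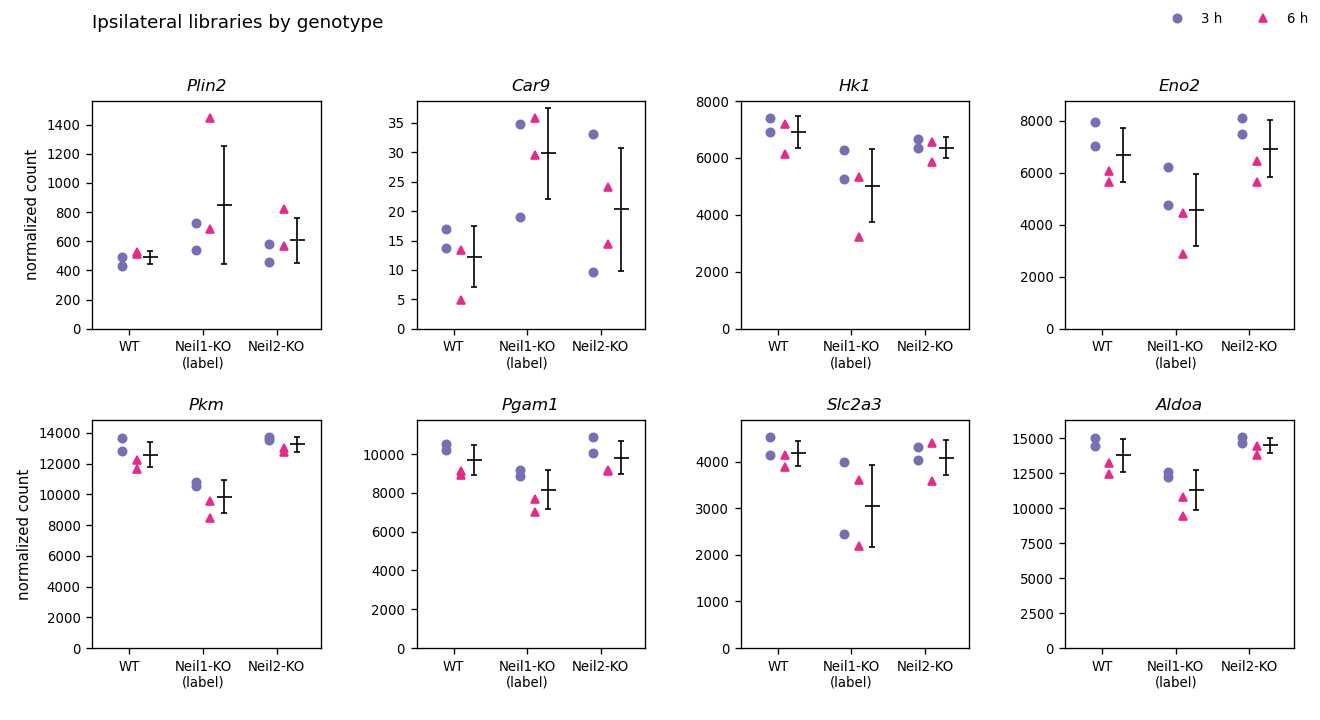
Normalized counts (vertical axis) of the 8 genes called between labelled Neil1-KO and WT, in the 12 ipsilateral libraries by genotype (horizontal axis) and time (marker); the black bar is the mean ± SD of 4 libraries. For Pkm and Eno2 the labelled Neil1-KO points lie below those of WT at the same time, and none of the 8 genes was called for Neil2-KO.

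Other genes of the pathway were counted from lists of their own. Of 13 other regulators of HIF, 2 were higher and 4 lower at 3 h, and 2 were higher and 6 lower at 6 h. Siah2, a ligase that removes prolyl hydroxylases, was 0.40 at 3 h and 0.72 ± 0.11 (SE; limma adjusted p = 2.35e-05) at 6 h, and Cited2, which competes with HIF for the coactivator p300, was 0.92 and 0.57 ± 0.07 (SE; limma adjusted p = 2.75e-06). The deepest falls were in Hif3a, an alpha subunit that can restrain HIF (-0.59 and -1.21 ± 0.18 (SE; limma adjusted p = 2.78e-05)), and Arnt2, the neuronal beta subunit (-0.42 and -0.59 ± 0.09 (SE; limma adjusted p = 1.9e-05)). Of 41 other HIF targets tested, 17 were higher and 6 lower at 3 h, and 22 higher and 6 lower at 6 h, with a median log2 fold change of 0.25 and 0.54. Among them Hmox1, the heme oxygenase, rose at both times (2.70 and 2.92 ± 0.12 (SE; limma adjusted p = 2.57e-11)). Edn1 (2.36) and Apln (1.97), both vascular peptides, rose at 6 h. The deepest falls at 6 h were in Car12, a carbonic anhydrase (-1.72), and Tfrc, the transferrin receptor (-0.64). Many of these targets are also driven by factors other than HIF. Kdr and Flt1 are also on the endothelium list, Aqp1 is on that of choroid plexus and Rora on that of thalamus. Of 33 other genes of glycolysis, pyruvate use and the pentose phosphate path that were tested, 4 were higher and 4 lower at 3 h, and 4 higher and 11 lower at 6 h. Hk3, the hexokinase of myeloid cells (1.13 and 1.81 ± 0.20 (SE; limma adjusted p = 1.01e-06)), and Pdk4, a pyruvate dehydrogenase kinase (1.15 and 1.56 ± 0.17 (SE; limma adjusted p = 7.29e-07)), rose where Pdk1 fell. Slc16a7, the neuronal lactate carrier MCT2 (-0.66 and -1.17 ± 0.13 (SE; limma adjusted p = 1.16e-06)), and Pgam2 (-0.49 and -0.74 ± 0.13 (SE; limma adjusted p = 0.000125)) fell. Of all genes tested, 14.1% and 24% were called higher at 3 h and 6 h, and 17.4% and 24.7% lower. The other HIF targets were called higher in 41.5% and 53.7% and lower in 14.6% at both times. The other genes of glycolysis were called higher in 12.1% at both times and lower in 12.1% and 33.3%. The other regulators were called higher in 15.4% at both times and lower in 30.8% and 46.2%, of 13 genes only.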

How the data were processed

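The authors deposited 1 table with a signal per gene and library; the signal is a read count divided by a size factor. Per the submitters' processing notes, Trim Galore, HISAT2, SAMtools, featureCounts and DESeq2 were used with genome build GRCm39 (mm39); their versions, settings and use of strand: not given in the sources used here. Dividing each deposited column by its smallest step gave whole reads for 100% of values (tolerance 1e-06). Of 33084 lines, 10770 (32.55%) carried no gene name and were left out; no column was left unused (0). The 8 libraries titled NEIL2-KO carry another genotype tag in the labels and were grouped by title.

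Genes at 10 or more in at least 2 of 24 libraries were tested (18364) on log2(value + 1), so fold changes understate the change of low genes, with limma-trend (limma 3.58.1, R 4.3.3), 12 group means, 12 residual degrees of freedom, 17 comparisons and Benjamini-Hochberg adjustment over all genes tested; calls are two-sided at adjusted p under 0.05. Libraries of both sides with the same number were taken as 1 animal, from the design text; the labels do not say so outright. The replicate differences of the sides correlated at -0.006 and -0.003 (WT, 3 h and 6 h), 0.27 and 0.15 (labelled Neil1-KO) and 0.05 and 0.03 (Neil2-KO). Replicates are labelled as biological, and p-values measure the spread between them. The main fit held no term for the animal, so its p-values treat both sides of 1 animal as separate libraries. The replicate block is the alternative that uses the pairing.

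The members and lists were chosen with earlier results of these data known. Values were named for the 8 members with the largest changes called at 6 h and 4 at 3 h, up to 3 further members a role group, Hif1a, Epas1, Arnt and Vhl, and up to 6 members called between genotypes; from each other list, genes called with the largest changes; 1 gene that this rule names is not reported here. Alternatives were a pseudocount of 5, no filter, TMM scaling, edgeR 4.0.16 and DESeq2 1.42.0 on recovered reads, only the compared groups, a replicate block and leaving out each library. Added after seeing the data were a term for choroid plexus markers, a term for neuron markers, and only animals with low Xist.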

Additional observations from a re-analysis of the deposited data

Results flagged for a closer look

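Slc16a3, the gene of the lactate exporter MCT4, was set apart because its side response differed between the times by a test of the difference itself: it was larger at 6 h than at 3 h by 0.93 on the log2 scale (limma, Benjamini-Hochberg adjusted p = 0.0321). Its ipsilateral to contralateral ratio was higher in each of the 6 animals at 6 h than in any of the 6 at 3 h. This restates the values that the test used. Over the alternatives other than leaving out a library, its adjusted p ranged up to 0.111, and the call was lost with a replicate block, with a term for neuron markers and with only animals with low Xist. The 1 call is 2.13% of the 47 genes, near the 1.9% of all genes called in this comparison.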

How the results depend on the processing

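Counts below are members called. Of the members' calls under alternatives, 2356 kept direction and call, 506 kept direction only and 24 reversed, all with the term for neuron markers, which moves with the side. With that term the counts were 8 and 5 for the sides at 3 h and 6 h, 2 for time contralaterally, 3 for time ipsilaterally, 3 (3 h) and 0 (6 h) for the labelled Neil1-KO sides, 4 and 6 for Neil2-KO, and 1 and 0 for labelled Neil1-KO against WT, contralaterally and ipsilaterally. The reversed log2 fold changes, none of them called, were 0.0082 (Slc2a3) and 0.103 (Eno2) for the sides at 3 h. At 6 h they were 0.32 (Slc2a3), 0.15 (Eno2), 0.064 (Pfkp), -0.24 (Epas1), -0.027 (Mxi1), -0.068 (Pfkfb3), 0.064 (Aldoa), 0.22 (Hk1) and -0.82 (Ankrd37), and for time ipsilaterally -0.012 (Epas1). In labelled Neil1-KO at 6 h they were 0.54 (Slc2a3), 0.076 (Eno2), 0.085 (Pfkp), -0.41 (Epas1), 0.084 (Aldoa), -0.47 (Slc16a1) and 0.19 (Hk1), in Neil2-KO at 6 h -0.080 (Adm) and 0.19 (Hk1), and for labelled Neil1-KO against WT ipsilaterally 0.068 (Slc2a3), -0.17 (Plin2) and 0.075 (Hk1). The cause was not tested.

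With only animals with low Xist, which leaves fewer samples, the counts were 0 for side by time, 7 for time ipsilaterally, 11 for WT at 3 h, 12 at 6 h in labelled Neil1-KO, 4 for labelled Neil1-KO against WT ipsilaterally and 1 for Neil2-KO. With only the compared groups they were 2 and 4 for time contralaterally and ipsilaterally, 10 and 7 for WT at 3 h and 6 h, 8 for labelled Neil1-KO at 6 h, 17 for Neil2-KO at 3 h, and 1 and 0 for labelled Neil1-KO against WT. DESeq2 gave 2 for time contralaterally and 7 for WT at 3 h. The choroid plexus term gave 17 for labelled Neil1-KO at 6 h and 0 against WT ipsilaterally, where no filter gave 5. The replicate block gave 0 for side by time and moved no other count by over 1.5 times; of single calls it ended those of Pdk1 and Ero1a at 3 h and 6 within a genotype (Egln3 and Pdk1 in WT, Pdk1 and Pfkm in labelled Neil1-KO, Ndrg1 and Egln2 in Neil2-KO).

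Without 1 library each, counts ranged 20 to 24 (sides, 3 h), 32 to 37 (sides, 6 h), 0 to 5 (side by time), 0 to 0 (time contralaterally), 6 to 20 (time ipsilaterally), 0 to 3 and 5 to 10 (WT, 3 h and 6 h), 9 to 12 and 17 to 32 (labelled Neil1-KO), 2 to 5 and 10 to 22 (Neil2-KO), 0 to 0 and 0 to 15 (labelled Neil1-KO against WT, contralaterally and ipsilaterally), 0 to 3 and 0 to 0 (Neil2-KO against WT), and 0 to 8 and 0 to 0 (side responses of labelled Neil1-KO and Neil2-KO against WT). A lone library left in a group is assumed to vary like the other groups. Car9 and Ankrd37 had few reads, which limits their precision.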
